A study of Mus musculus with 12 samples.

Results

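Ribosome biogenesis and RNA polymerase I genes were followed across the sorted sub-populations of the ML23 leukemia line. They are 53 protein-coding genes of the 13730 protein-coding genes, and of the 20202 genes in all, in the deposited table. Members were chosen by symbol: the *Utp*, *Nop*, *Noc*, *Nol* and *Rrp* genes with a number in their name, *Polr1a* to *Polr1e*, and *Rrn3*, *Mybbp1a*, *Fbl*, *Dkc1*, *Ncl*, *Npm1*, *Bop1*, *Pes1*, *Wdr12* and *Nat10*. By role, 7 belong to RNA polymerase I and its initiation, 21 to the small subunit processome, 8 to the small nucleolar ribonucleoproteins (snoRNPs) and rRNA modification, and 11 to large subunit assembly. The remaining members are 4 nucleolar proteins (*Ncl*, *Npm1*, *Nol8*, *Nol12*) and 2 genes that share only the name (*Nol3*, *Nol4l*).

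The RNA-seq data comprise 12 libraries, 3 from each of 4 sub-populations. By the study's gates, all of ZsGreen+ cells, P11 is CD9-cKit+Mac1-CD48+, P12 is CD9-cKit-Mac1-CD48+, P10 is CD9-cKit+Mac1+CD48+ and P9 is CD9+cKit+Mac1+CD48-. The study compared P11 with the average of P12, P10 and P9, and the other pairs were compared here in the same fit. All 4 share a single origin: ML23 is 1 AML-like line, made from cells of rtTA transgenic mice (Jax strain 6965) with lentiviruses that overexpress *Meis1*, *HoxA9* and *HoxB5*, and passaged in C57BL/6 mice. By the methods the cells came from 3 diseased mice, and by the labels each library holds 100 sorted cells. The ages of the mice are not given in the sources used here. The labels number the libraries without naming the mouse, so the p-values measure the spread between these libraries. Values are CPM, the alignments to a gene scaled by the library's total, given in the order of the replicate numbers.

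Ribosomes are made in the nucleolus. RNA polymerase I transcribes the tandem rDNA genes into a long precursor, the processome folds and cuts the part that becomes the small subunit rRNA, snoRNPs guide its methylation and pseudouridylation, and a further set of factors builds the large subunit. The program is costly, follows growth and the MYC transcription factor, and is known to be wound down as myeloid cells mature into neutrophils.

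Library totals, recovered from the spacing of low values, ran from 13441858 to 21307436 alignments, so that by these totals 1 CPM stood for 13.4 to 21.3 alignments. Most of these totals lie above the range of reads per sample given in the study's methods. The difference was not resolved, so the alignments per CPM are uncertain. The P9 libraries differed in composition. Their 10 most abundant genes held 17.3% to 18.7% of the table, against 5.5% to 7.6% in the other libraries, and 10 neutrophil markers summed to 105200 to 118300 CPM in P9, against 210.3 to 685.1 CPM in P11, 279.9 to 421 CPM in P12 and 1214 to 11060 CPM in P10. P10 replicate 3 held the highest neutrophil sum outside P9. P12 replicate 3 stood apart from its group: *Itgam*, which encodes Mac1, was at 538 CPM there, against 139 and 130 CPM in P12 replicates 1 and 2. The 10 monocyte and macrophage markers summed to 3956 CPM in P12 replicate 3, against 2498 and 2225 CPM in P12 replicates 1 and 2, 2089 to 2482 CPM in P11, 3585 to 4070 CPM in P10 and 991.8 to 1047 CPM in P9. P12 replicate 3 thus lay within the range of P10 on these markers. *Kit* was at 8.44, 8.07 and 21.5 CPM in P10, sorted as cKit+, and at 5.73, 4.45 and 5.38 CPM in P12, sorted as cKit-. The labels name the source as hematopoietic stem cells, and the stem cell marker *Procr* did not pass 0.235 CPM in any library. Of the 8 stem and progenitor markers tested, 5 were called higher and 1 lower in P11 against P9, where 46.8% and 11.2% of all genes were. Their median log2 difference was 2.03, against 0.90 for all genes tested. The list they come from holds *Kit*, a gate of the sort, and *Meis1*, *HoxA9* and *HoxB5*, which the lentiviruses overexpress. It is therefore not independent of how the line was made and sorted. The marker called lower, *Hlf*, was at 0.166, 0.113 and 0.149 CPM in P11 and at 3.15, 3.91 and 2.47 CPM in P9. Markers of T and NK cells summed to 10.7 CPM at most. The part of these differences in the results below was not tested. In such samples fewer cells of a type and less RNA per cell cannot be told apart.

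The E-box CACGTG is the site bound by MYC with its partner MAX, and it was searched in the 300 bases from 250 before to 50 after each start site (RefSeq, GRCm38.p6). The letters CACGTG read the same on both strands. Of the 53 members, 43 matched by symbol, with 51 promoters. CACGTG lay in 10 of the 51 (19.6%), against 1201 of 12043 promoters of the other genes tested (9.97%) and 7.15% of all 32851 promoters. GCATGC, the core of the NRF1 motif and also palindromic, lay in 1 of the 51 (1.96%), against 9.79% for the other genes tested and 7.93% for all. No test was made of these shares. Promoters with CACGTG belonged to *Mybbp1a*, *Rrn3*, *Nol11*, *Rrp7a*, *Utp4*, *Utp14b*, *Utp18*, *Utp20*, *Nop2* and *Pes1*. Those of *Rrn3*, *Mybbp1a* and *Utp20* are shown, as members whose values in each library follow. The values of *Pes1* and *Utp14b* follow too, and their promoters are not shown. Capitals mark CACGTG, and in *Utp20* also GCATGC. *Rrn3* (chr16:13780449-13780748, plus strand) was the only member promoter with more than 1 match, starting at -215 and -48 relative to the start site. The matches of *Mybbp1a* (chr11:72441077-72441376, plus strand) and *Utp20* (chr10:88826765-88827064, minus strand) start 40 and 37 bases after it.
*Rrn3*: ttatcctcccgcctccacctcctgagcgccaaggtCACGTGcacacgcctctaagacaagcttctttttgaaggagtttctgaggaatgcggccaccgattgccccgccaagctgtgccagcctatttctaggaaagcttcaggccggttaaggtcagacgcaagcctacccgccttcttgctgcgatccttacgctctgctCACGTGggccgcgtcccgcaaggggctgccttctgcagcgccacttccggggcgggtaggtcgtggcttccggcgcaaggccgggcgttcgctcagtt
*Mybbp1a*: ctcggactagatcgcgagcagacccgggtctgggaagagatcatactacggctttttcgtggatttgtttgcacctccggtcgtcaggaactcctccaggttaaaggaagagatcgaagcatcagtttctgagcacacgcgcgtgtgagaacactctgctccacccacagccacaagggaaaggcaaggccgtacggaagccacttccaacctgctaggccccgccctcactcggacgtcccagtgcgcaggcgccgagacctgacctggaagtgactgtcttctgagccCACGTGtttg
*Utp20*: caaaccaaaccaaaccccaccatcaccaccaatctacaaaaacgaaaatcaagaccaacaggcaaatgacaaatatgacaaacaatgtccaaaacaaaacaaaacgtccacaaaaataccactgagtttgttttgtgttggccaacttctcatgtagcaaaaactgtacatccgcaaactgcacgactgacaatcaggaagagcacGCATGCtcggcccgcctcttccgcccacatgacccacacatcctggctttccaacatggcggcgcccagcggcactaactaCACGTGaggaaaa

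Levels of these genes were graded across the sub-populations. In 49 of the 52 members tested the means ran P11 > P12 > P10 > P9, an order held by 35.6% of all 13450 genes tested, and P9 was lowest in 52 of 52 (66.5% of all genes). Summed over the members, 4226 to 4386 CPM were found in P11, 2618 to 3817 CPM in P12, 1882 to 1994 CPM in P10 and 544.2 to 710.9 CPM in P9. The sums did not overlap between sub-populations. Against the mean of P12, P10 and P9, 40 members were called higher in P11 and 0 lower, where 19.9% of all genes were called higher and 5.2% lower. A call needed an adjusted p below 0.1 in limma and a difference beyond 2-fold. The median member differed by 1.35 on the log2 scale, against 0.40 for all genes tested. After libraries were rescaled by a median ratio over 5641 genes expressed in every library, 35 members were called. Of all genes 1739 were then higher and 987 lower, against 2671 and 699 before. In 29 members all 3 P11 libraries lay above all 9 others, as in 12.8% of all genes. Of the 53 members, 52 passed the filter on low values and 49 of these reached 1 CPM in every library. *Polr1e*, *Rrp9* and *Rrp15* fell under 1 CPM in P9 only. Differences are on the log2(CPM + 0.5) scale, which understates the change of such low genes.

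**Figure D1:**
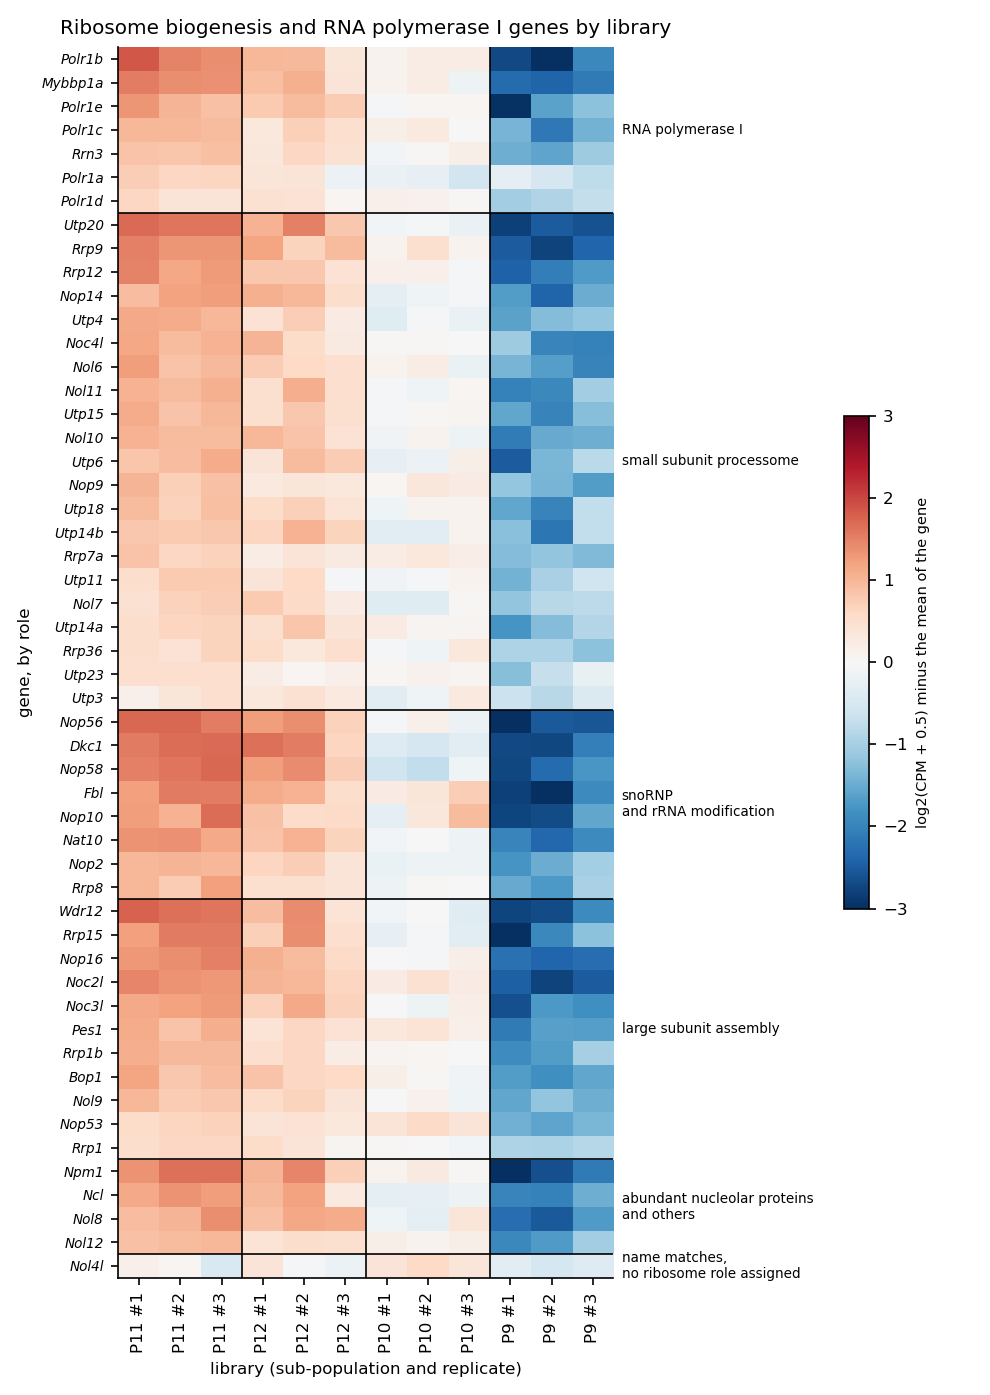
Rows are the 52 members tested, by role, and columns the 12 libraries. Color gives log2(CPM + 0.5) minus the mean of the gene. The 3 P9 columns are blue in nearly every row, the P10 columns pale, and P12 #3 is paler than the other P12 columns.

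RNA polymerase I is built on a pair of large subunits, and these did not move alike. *Polr1a*, the largest subunit and part of the active center (chr6:71909053-71984936 in mm10), was at 97.7, 89.6 and 91.3 CPM in P11, at 75.0, 76.3 and 52.0 CPM in P12, at 50.5, 49.5 and 39.1 CPM in P10 and at 47.8, 41.3 and 34.3 CPM in P9. *Polr1b*, its partner in the active center, was at 53.5, 41.3 and 38.5 CPM in P11, at 28.8, 28.6 and 18.4 CPM in P12, at 15.3, 16.8 and 16.8 CPM in P10 and at 1.76, 1.38 and 3.37 CPM in P9. The P10 and P9 libraries overlapped for *Polr1a*, and no groups overlapped for *Polr1b*. In P10 against P9 *Polr1b* differed by 2.72 on the log2 scale (SE 0.26, adjusted p = 1.49e-06) and *Polr1a* by 0.17 (SE 0.17, adjusted p = 0.39). In P11 against P10 both were called, *Polr1b* at 1.41 (adjusted p = 0.0011) and *Polr1a* at 1.00 (adjusted p = 0.000648). Per kilobase of exon, the ratio of *Polr1b* to *Polr1a* averaged 0.975 ± 0.132 for P11, 0.758 ± 0.0313 for P12 and 0.731 ± 0.134 for P10 libraries, and 0.115 ± 0.0747 for P9 libraries (SD, n = 3 each). The ratio was chosen after these values were seen and was not tested.

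Of the subunits that RNA polymerase I shares with RNA polymerase III, *Polr1c* was called and *Polr1d* was not. *Polr1c* was at 22.2, 22.1 and 21.4 CPM in P11, at 13.8, 18.3 and 15.7 CPM in P12, at 12.4, 13.4 and 10.9 CPM in P10 and at 3.81, 2.09 and 3.76 CPM in P9. Its groups did not overlap, and P11 lay 1.30 above the mean of the others on the log2 scale (SE 0.18, adjusted p = 5.67e-05). *Polr1d* was at 53.1, 45.6 and 45.3 CPM in P11, at 47.8, 47.1 and 35.8 CPM in P12, at 38.1, 37.7 and 35.4 CPM in P10 and at 16.6, 18.2 and 20.8 CPM in P9. P11, P12 and P10 neighbored each other closely, and the difference of 0.62 (SE 0.12, adjusted p = 0.000678) stayed under 2-fold. *Polr1e*, a subunit that takes part in initiation, was at 16.2, 13.1 and 11.8 CPM in P11, at 11.2, 12.4 and 10.9 CPM in P12, at 6.08, 6.48 and 6.44 CPM in P10 and at 0.366, 1.71 and 2.36 CPM in P9. P11 and P12 overlapped, and both lay above all P10 and P9 libraries.

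The factors that work with the polymerase were graded too. *Rrn3* encodes the initiation factor that joins RNA polymerase I to the rDNA promoter and answers to growth signals. It was at 52.1, 51.4 and 53.9 CPM in P11, at 36.3, 44.5 and 39.8 CPM in P12, at 27.3, 29.4 and 32.7 CPM in P10 and at 10.04, 9.19 and 13.4 CPM in P9, with no overlap between groups. P11 lay 1.14 above the mean of the others (SE 0.13, adjusted p = 1.41e-05), a call lost when libraries were rescaled by the median ratio (0.91). *Mybbp1a*, a nucleolar protein that binds MYB and the RNA polymerase I machinery, was at 242, 220 and 217 CPM in P11, at 157, 174 and 109 CPM in P12, at 89.5, 98.1 and 75.3 CPM in P10 and at 16.6, 15.4 and 18.7 CPM in P9. Again the groups did not overlap, and the difference of P11 from the mean of the others was 1.91 (SE 0.14, adjusted p = 1.53e-06). In all, 5 of the 7 were called higher in P11 against the others, 4 against P10 and 7 against P9, where 19.9%, 12.8% and 46.8% of all genes were. In P11 against P10, *Polr1a* and *Polr1e* were no longer past 2-fold without P11 replicate 1 (0.97 and 0.92), after libraries were rescaled (0.86 and 0.91) or with a pseudocount of 2 (0.98 and 0.91), nor was *Polr1a* without P10 replicate 3 (0.89). Against P9, rescaling ended the calls of *Polr1a* (0.67) and *Polr1d* (0.85).

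**Figure D2:**
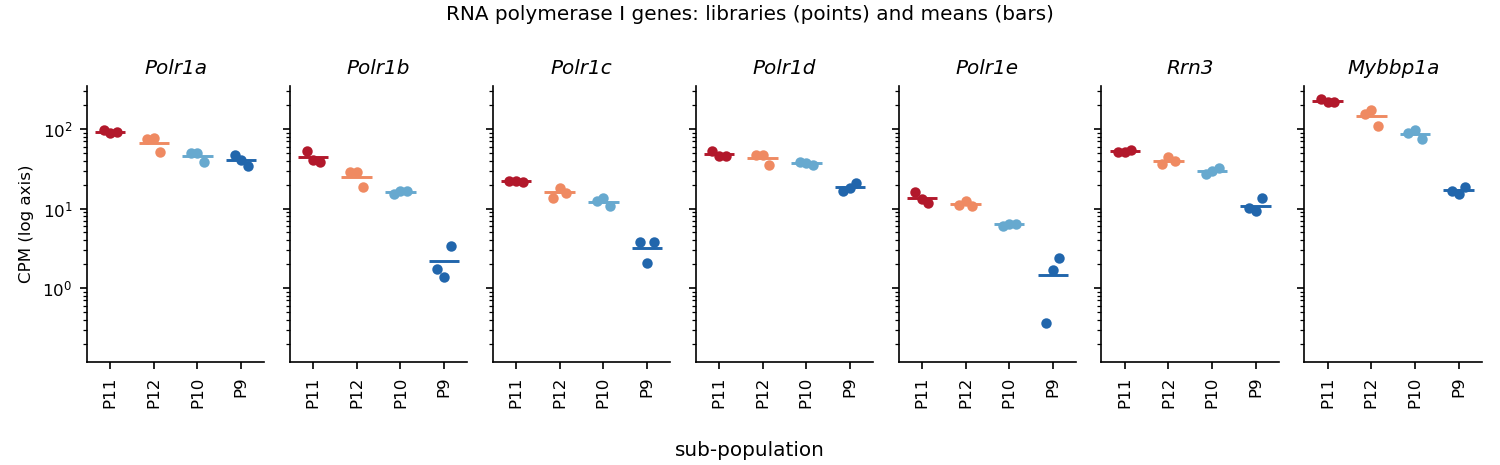
CPM (log axis) of the 7 RNA polymerase I genes in P11, P12, P10 and P9; points are libraries and bars means. *Polr1a* in P9 (34.3 to 47.8 CPM) stays near P10, while *Polr1b* (1.38 to 3.37 CPM) is far below it.

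The small subunit processome, the particle that assembles on the nascent precursor, gave 14 of 21 members higher in P11 against the others. Of all genes 19.9% were higher there, and the medians were 1.27 for these members and 0.40 for all genes. The difference ranged over 0.45 to 2.19, from *Utp3* to *Utp20*. *Utp20*, a very large protein that scaffolds the particle and had the highest mean of this group, was at 101, 93.3 and 94.4 CPM in P11, at 63.8, 87.9 and 53.5 CPM in P12, at 28.6, 29.1 and 26.4 CPM in P10 and at 3.96, 5.01 and 4.60 CPM in P9. The 4 groups did not overlap. On the log2 scale P11 lay 2.19 above the others' mean (SE 0.14, adjusted p = 8.26e-07) and 4.27 above P9 (adjusted p = 8.37e-10). *Utp3*, a processome protein, was at 44.2, 50.9 and 56.1 CPM in P11, at 49.3, 54.8 and 48.8 CPM in P12, at 31.8, 36.2 and 48.7 CPM in P10 and at 25.3, 21.9 and 29.0 CPM in P9. The P12 libraries lay within the range of P11, and P10 replicate 3 reached into it. *Utp3* was the only member with an assigned role that was not called in P11 against P9, at 0.98 (SE 0.17, adjusted p = 0.000143).

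Other processome members followed the common order. *Rrp9*, a protein of the snoRNP that pairs with the precursor, was nearly lost from P9, with 0.366, 0.22 and 0.449 CPM there, against 4.77, 6.29 and 4.76 CPM in P10. Those values stand for a few alignments, and all 3 P9 libraries were far below P10 (the difference of P10 from P9 was 2.77, SE 0.23, adjusted p = 4.08e-07). *Rrp12* (1.75), *Nop14* (1.50) and *Utp4* (1.44) were among the larger differences of P11 from the mean of the others. The 7 not called were *Nol7*, *Rrp36*, *Rrp7a*, *Utp11*, *Utp14a*, *Utp23* and *Utp3*, all of which differed by 0.45 to 0.96 with an adjusted p under 0.1. *Utp14b*, a retrocopy of *Utp14a* that lies within *Acsl3* on the same strand, was at 14.9, 14.7 and 14.8 CPM in P11, at 13.2, 17.5 and 13.3 CPM in P12, at 6.41, 6.43 and 8.84 CPM in P10 and at 3.15, 1.43 and 4.71 CPM in P9. Reads can be split between the copies, so its call (1.08, adjusted p = 0.00244) and the lack of a call for *Utp14a* (0.82, adjusted p = 0.000808) are uncertain. The call of *Utp14b* was lost without P9 replicate 2 (0.94).

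All 8 snoRNP and rRNA modification members were called higher in P11 against the others, where 19.9% of all genes were. Their median was 1.84, against 0.40 for all genes. Box C/D snoRNPs methylate rRNA and are built on *Nop56*, *Nop58* and the methyltransferase *Fbl*, fibrillarin. *Nop56* (chr2:130274430-130279314), which had both the highest mean and the largest difference of the group, was at 174, 175 and 154 CPM in P11, at 127, 139 and 84.9 CPM in P12, at 51.8, 58.8 and 46.5 CPM in P10 and at 5.42, 8.76 and 8.56 CPM in P9. The groups did not overlap, and P11 lay 2.21 above the mean of the others (SE 0.17, adjusted p = 1.75e-06). *Nop58* was at 111, 119 and 130 CPM in P11, at 92.4, 104 and 65.2 CPM in P12, at 25.4, 23.0 and 35.6 CPM in P10 and at 5.42, 7.37 and 11.1 CPM in P9. P12 lay 1.62 above P10 (SE 0.24, adjusted p = 0.00105), with P11 0.48 above P12 (adjusted p = 0.414). *Fbl* was at 50.6, 64.1 and 63.3 CPM in P11, at 46.7, 44.7 and 30.9 CPM in P12, at 25.3, 27.5 and 36.1 CPM in P10 and at 2.64, 1.24 and 5.30 CPM in P9. P12 and P10 overlapped for *Fbl*, and its difference of P10 from P9 (3.24, SE 0.34, adjusted p = 2.97e-06) was the largest of any member in that pair.

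Box H/ACA snoRNPs convert uridine to pseudouridine. *Dkc1*, their pseudouridine synthase and a component of telomerase, was at 118, 129 and 130 CPM in P11, at 126, 116 and 62.3 CPM in P12, at 30.3, 28.1 and 31.9 CPM in P10 and at 5.64, 5.56 and 9.204 CPM in P9. P12 replicates 1 and 2 lay within the range of P11 or just below it and replicate 3 far below, and over all 3 libraries P12 was called above P10 by 1.67 (SE 0.24, adjusted p = 0.000869). *Nop10*, a small protein of the same particle, differed by 1.76 in P11 against the others, and its values of 22.7 to 35.7 CPM gave the highest coefficient of variation of any member tested in P11, 23.7%. *Nat10*, the acetyltransferase of rRNA, differed by 1.72, and the methyltransferase *Nop2* by 1.34. *Rrp8*, a methyltransferase of the large subunit rRNA and the smallest difference of the group at 1.32 (SE 0.16, adjusted p = 2.93e-05), was at 30.6, 26.0 and 36.3 CPM in P11, at 21.2, 21.3 and 20.03 CPM in P12, at 13.7, 15.5 and 15.2 CPM in P10 and at 4.99, 4.24 and 7.42 CPM in P9. Its groups did not overlap.

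Large subunit assembly gave 9 of 11 members higher in P11 against the others, where 19.9% of all genes were. Their median was 1.35, against 0.40 for all genes. *Wdr12*, *Pes1* and *Bop1* form a complex that matures the large subunit rRNA. *Wdr12* (chr1:60069785-60098646), with the largest difference of any member, was at 60.0, 55.1 and 53.1 CPM in P11, at 33.4, 46.8 and 23.3 CPM in P12, at 16.3, 17.2 and 13.3 CPM in P10 and at 2.12, 2.26 and 4.25 CPM in P9. No groups overlapped, and P11 lay 2.23 above the mean of the others (SE 0.22, adjusted p = 6.41e-06). *Pes1* was at 88.8, 73.5 and 86.5 CPM in P11, at 53.8, 63.2 and 55.5 CPM in P12, at 51.2, 54.1 and 45.1 CPM in P10 and at 9.01, 12.8 and 12.5 CPM in P9. *Bop1* was at 63.1, 49.2 and 53.3 CPM in P11, at 50.2, 42.8 and 42.1 CPM in P12, at 31.3, 28.2 and 25.6 CPM in P10 and at 8.28, 7.39 and 9.04 CPM in P9. For *Pes1* P12 reached down into P10, and for *Bop1* P12 reached up into P11, and the differences of P11 from the others were 1.35 and 1.30.

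The large subunit members not called were *Nop53* and *Rrp1*. *Nop53*, an assembly factor that in yeast recruits the exosome, and that had the highest mean of this group, was at 126, 134 and 138 CPM in P11, at 111, 116 and 107 CPM in P12, at 112, 127 and 112 CPM in P10 and at 31.0, 28.3 and 32.8 CPM in P9. P11, P12 and P10 lay close together, with P11 0.18 from P10 (SE 0.11, adjusted p = 0.185), and P10 lay 1.91 above P9 (adjusted p = 1.32e-08). *Rrp1* was at 112, 121 and 121 CPM in P11, at 114, 102 and 82.4 CPM in P12, at 80.0, 77.3 and 74.2 CPM in P10 and at 41.1, 40.3 and 42.7 CPM in P9. Its 0.79 (SE 0.10, adjusted p = 3.53e-05) was the smallest difference of P11 from the others in the group. *Rrp15* (1.92), *Nop16* (1.87), *Noc2l* (1.82) and *Noc3l* (1.62), assembly factors of the early large subunit, were called.

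The nucleolar proteins *Ncl* and *Npm1* were by far the most abundant members, and together held 30.6% to 35.1% of the summed member CPM in P11, 29.1% to 36.0% in P12, 26.8% to 27.1% in P10 and 20.2% to 25.0% in P9. *Ncl*, nucleolin (chr1:86344719-86359401), was at 828, 954 and 907 CPM in P11, at 736, 866 and 463 CPM in P12, at 307, 319 and 337 CPM in P10 and at 94.6, 92.3 and 136 CPM in P9. P12 replicate 2 reached into P11, and the difference of P11 from the others was 1.66 (SE 0.17, adjusted p = 8.69e-06). *Npm1*, the nucleophosmin chaperone whose human gene is often mutated in AML (in the mouse at chr11:33152287-33163207), was at 464, 576 and 573 CPM in P11, at 371, 508 and 297 CPM in P12, at 196, 221 and 188 CPM in P10 and at 15.4, 28.7 and 41.8 CPM in P9. P12 replicate 2 again reached into P11. P11 differed from the others by 2.07 (SE 0.23, adjusted p = 1.56e-05), and since the gene has processed pseudogenes, shared reads make its level uncertain. *Nol12*, the smallest difference here at 1.25 (SE 0.17, adjusted p = 6.84e-05), was at 19.0, 19.7 and 20.3 CPM in P11, at 13.4, 14.6 and 14.1 CPM in P12, at 11.3, 10.8 and 11.4 CPM in P10 and at 2.27, 2.75 and 4.60 CPM in P9. *Nol8* was higher in P11 against the others (1.49) and nearly level between P11 and P12 (0.06).

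**Figure D3:**
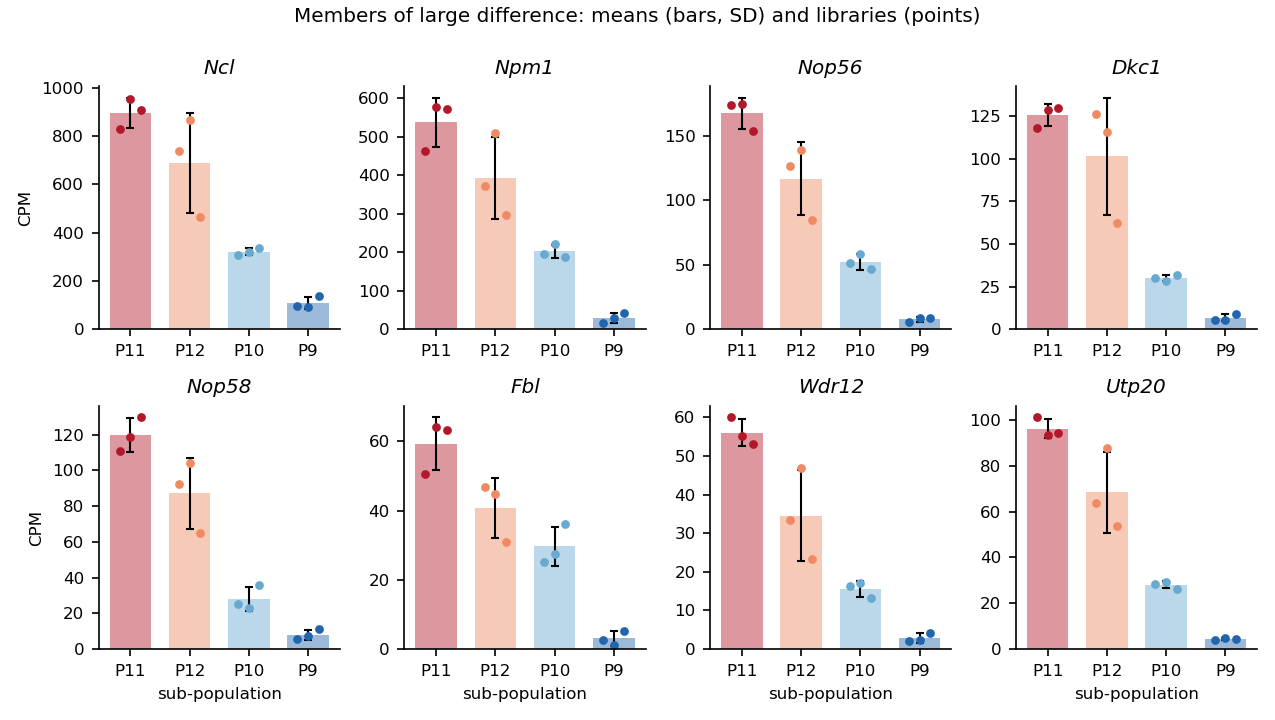
CPM of 8 members in P11, P12, P10 and P9; bars are means, whiskers SD over 3 libraries and points libraries. The low P12 point in each panel is replicate 3, for example 463 CPM for *Ncl* against 736 and 866 CPM in P12 replicates 1 and 2.

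The genes that share only the name did not follow the order. *Nol4l* was at 12.9, 12.1 and 8.31 CPM in P11, at 15.3, 11.3 and 10.2 CPM in P12, at 15.5, 17.98 and 15.1 CPM in P10 and at 9.23, 7.92 and 8.87 CPM in P9. It was highest in P10, and P11 differed from the mean of the others by -0.12 (SE 0.17, adjusted p = 0.565). *Nol3*, an inhibitor of apoptosis, did not pass the filter: it was at 0.11, 0.219 and 0.215 CPM in P11, 0 in P12 and P10, and at 0.835, 0 and 0 CPM in P9.

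P11 and P12 were the nearest pair. Of the 52 members 0 were called in either direction in P11 against P12 by limma (0.0223% of all genes higher, 0% lower), with 23 at an unadjusted p under 0.05 (1860 of the 13450 genes) and a smallest adjusted p of 0.154. The count of all genes called was 3 and depended on single libraries, at 83 without P12 replicate 2, 40 without P9 replicate 3 and 30 without P10 replicate 3. It depended on the fit too, at 119 with the replicate number as a block. In each case 0 members were among them. Still, 50 of 52 differences were above zero, against 8480 of 13450 for all genes, and the median was 0.42, against 0.10. In 30 members every P11 library lay above every P12 library, as in 17% of all genes. *Polr1b* had the largest difference, 0.82 (95% interval 0.25 to 1.39), followed by *Wdr12* at 0.75 (0.18 to 1.32) and *Mybbp1a* at 0.65 (0.29 to 1.01). For *Ncl* the interval was -0.02 to 0.87 and for *Npm1* -0.13 to 1.10. P12 replicate 3 was the lowest P12 library in 38 members and the highest in 0, ranks not counted over all genes. Over the members it lay at a root mean square log2 distance of 0.671 from the P11 libraries and 0.558 from the P10 libraries, whereas replicates 1 and 2 lay nearer to P11 (0.431 and 0.338) than to P10 (0.813 and 0.933). Without it the median of P11 against P12 was 0.31, and without P12 replicate 2 it was 0.51, with 0 members called in both cases.

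P12 against P10 gave 9 members higher and 0 lower, where 6.25% of all genes were higher and 5.83% lower, and a median of 0.59, against 0.14 for all genes. These were *Dkc1* (1.67), *Nop58* (1.62), *Utp20* (1.24), *Nop56* (1.13), *Rrp15* (1.07), *Wdr12* (1.07), *Nol8* (1.06), *Ncl* (1.05) and *Nop14* (1.01). None was an RNA polymerase I member. The count depended on P12 replicate 2, without which 4 members were called. Of all genes 1233 were then called in either direction, against 1624 in the fit reported. It depended on scaling too, since 4 members were called after rescaling, when 637 of all genes were higher and 867 lower. Without P12 replicate 3 the member count was 12, and 2254 of all genes were called. P11 against P10 gave 27 higher and 0 lower (12.8% and 7.52% of all genes), with a median of 1.01, against 0.25 for all genes. After rescaling 18 members were called, and of all genes 1285 were higher and 1178 lower, against 1728 and 1012 before. Groups did not overlap in 42 members in P12 against P10 (28.3% of all genes) and in 49 in P11 against P10 (40.8%). Without P10 replicate 3, which held the most neutrophil transcripts of its group, 28 members were called, and 2902 of all genes, against 2740 with it. *Nop58* (2.10, adjusted p = 7.56e-05) and *Dkc1* (2.04, adjusted p = 8.3e-05) led, and *Nop53* (0.18) and *Nol4l* (-0.54) were lowest.

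The comparisons with P9 held the largest differences. P10 against P9 gave 44 members higher and 0 lower (34.1% and 8.33% of all genes) with a median of 1.71, against 0.61 for all genes. P12 against P9 gave 48 and 0 (43.2% and 11.1%) with a median of 2.30, against 0.80, and P11 against P9 gave 50 and 0 (46.8% and 11.2%) with a median of 2.67, against 0.90. Every library of P10 lay above every P9 library in 51 members (53.9% of all genes), as did P12 in 52 (56.9%) and P11 in 51 (61.5%). *Nop56* (4.41), *Npm1* (4.31) and *Utp20* (4.27) differed most between P11 and P9. Not called in P10 against P9 were *Polr1a*, *Polr1d*, *Nol7*, *Rrp1*, *Utp11*, *Utp23*, *Utp3* and *Nol4l*. In 48 of the 52 members the difference of P10 from P9 was larger than that of P11 from P10, and in *Polr1a*, *Nop58*, *Nol7* and *Utp4* it was smaller. The same was not counted over all genes, but their median was also larger in P10 against P9 (0.61) than in P11 against P10 (0.25). Comparisons that share a group share its 3 libraries. P9 members spread the most, with a median coefficient of variation of 28.8%, against 8.15% in P11, 16.4% in P12 and 9.13% in P10. Their levels were also lowest in P9, and the part of this in the spread was not tested. P9 replicate 3 was the highest P9 library in 37 members, a rank not counted over all genes. The median of all genes is itself above zero in each comparison with P9. Rescaling by the median ratio lowered that median by 0.46 in P11 against P9, 0.42 in P12 against P9 and 0.33 in P10 against P9. In P11 against the others it fell by 0.22 and in P11 against P10 by 0.13. After rescaling it was still 0.45 in P11 against P9, 0.38 in P12 against P9 and 0.28 in P10 against P9. Since rescaling divides each library by a single factor, it shifts members and other genes nearly alike. The distance of the median member from the median gene could therefore hardly move. In P11 against the others it was 0.93 after rescaling and 0.95 before, and in P10 against P9 1.10 both ways.

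**Figure D4:**
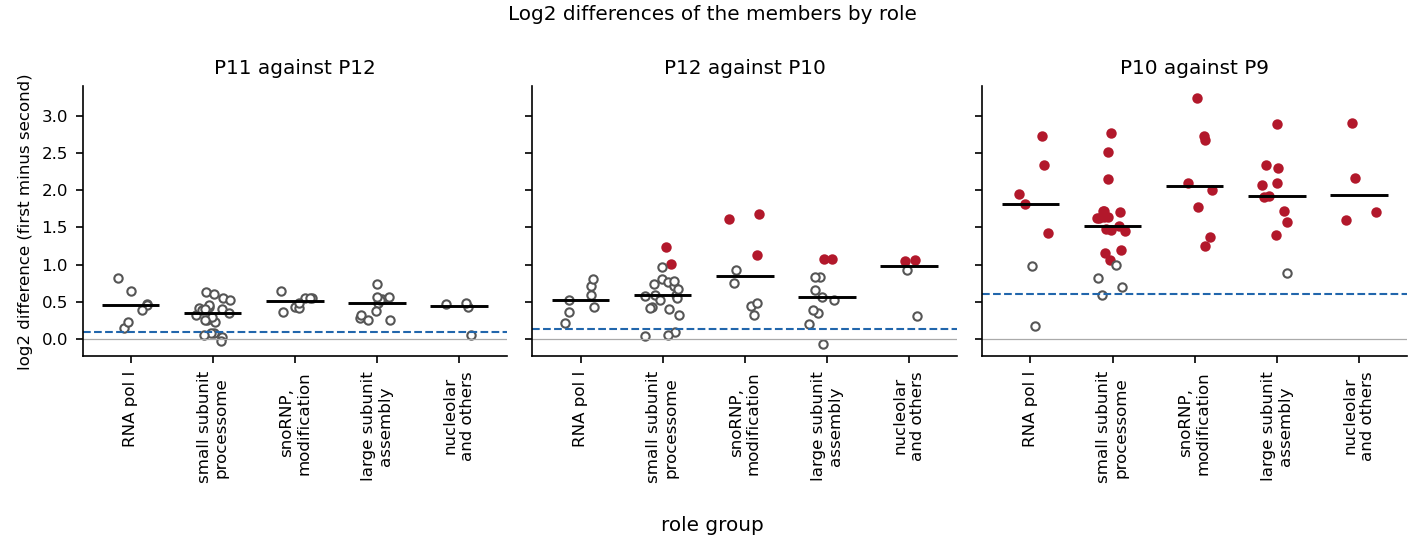
Log2 differences of the members by role for P11 against P12, P12 against P10 and P10 against P9. Filled points were called and open points were not, black bars are role medians, and the dashed line is the median of all genes tested (0.10, 0.14 and 0.61). No point is filled in P11 against P12, 9 are in P12 against P10 and 44 in P10 against P9.

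The remaining genes of the pathway, on lists of factors outside the symbol rule, were set beside the members. Of 14 other snoRNP factors 13 were higher in P11 against the others (median 1.49), of 38 other large subunit factors 29 (1.20), of 31 other processome factors 20 (1.18) and of 13 RNA exosome genes 8 (1.15), with 0 lower in each. Of all genes 19.9% were higher in this comparison, with a median of 0.40. *Gnl3*, nucleostemin, a nucleolar GTPase of stem and tumor cells, led with 73.2, 78.4 and 71.9 CPM in P11, 46.1, 62.6 and 32.9 CPM in P12, 18.8, 19.7 and 18.2 CPM in P10 and 2.12, 1.76 and 3.70 CPM in P9. Its groups did not overlap (2.44, P11 against the others). *Ppan* (2.24), a large subunit factor, *Rcl1* (2.19), a processome protein, and the H/ACA proteins *Naf1* (2.02) and *Gar1* (2.00) stood at the top of their lists, and *Gnl1* (0.38), *Ngdn* (0.35) and *Pih1d1* (0.60) at the bottom.

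Of 12 other factors of RNA polymerase I, 2 (16.7%) were higher in P11 against the others and 0 lower, a share near the 19.9% of all genes. Their median was 0.49, against 0.40 for all genes. *Tcof1*, treacle, which binds the polymerase and its rDNA factor UBF, was called (1.54, adjusted p = 1.61e-06), as was *Taf1d* (1.35, adjusted p = 4.08e-05), a subunit of the promoter factor. *Ubtf*, which encodes UBF itself, was at 141, 149 and 151 CPM in P11, at 126, 115 and 122 CPM in P12, at 97.0, 105 and 115 CPM in P10 and at 70.3, 70.1 and 79.8 CPM in P9. It kept the order of the members with smaller gaps, and its 0.58 (adjusted p = 0.00011) stayed under 2-fold. *Sirt7*, a deacetylase that activates the polymerase, and *Baz2a*, a subunit of the complex that silences rDNA, differed by -0.32 (adjusted p = 0.042) and -0.27 (adjusted p = 0.0229). *Baz2a* was at 211, 219 and 217 CPM in P11 and at 352, 310 and 268 CPM in P9, with the P9 libraries above all P11 libraries.

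Subunits listed under the other polymerases and the ribosomal proteins were used for comparison. Of 13 RNA polymerase II subunits 4 (30.8%) were higher in P11 against the others, with a median of 0.89. Of 11 RNA polymerase III subunits 4 (36.4%) were, with a median of 0.70, where 19.9% of all genes were (median 0.40). The RNA polymerase II list is not separate from RNA polymerase I: *Polr2e*, *Polr2f*, *Polr2h*, *Polr2k* and *Polr2l* encode subunits that both share. Of the cytosolic ribosomal proteins, which biogenesis factors assemble, 75 of 77 were higher in P10 against P9 with a median of 2.19 (34.1% of all genes, median 0.61). In P11 against P10 4 of 77 were higher with a median of 0.48 (12.8% of all genes, median 0.25). The members stood at 1.71 and 1.01 in these comparisons. Of the replication and mitosis genes, 16 of 16 were higher in P11 against P10 (median 1.66). In P10 against P9 7 of 16 were (43.8%, median 0.51), near the share and the median of all genes. Their summed level was 4393 to 4955 CPM in P11, 3447 to 4141 CPM in P12, 1207 to 1991 CPM in P10 and 898 to 1996 CPM in P9. Differences between these lists were not tested.

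**Figure D5:**
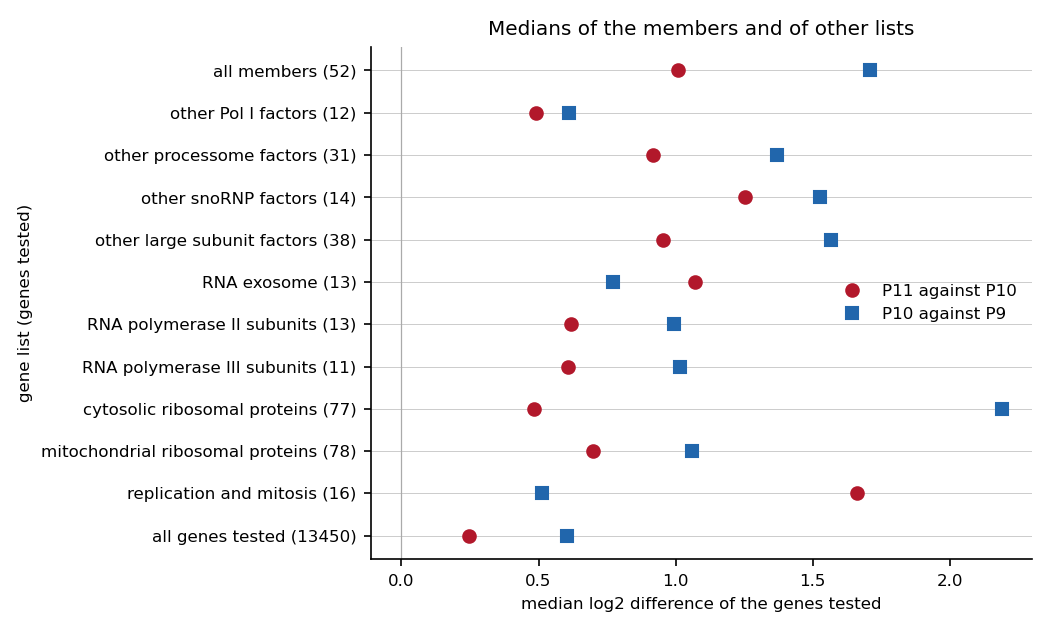
Median log2 difference of the members, of 10 other lists and of all genes tested in P11 against P10 (circles) and P10 against P9 (squares); the number of genes tested is in brackets. Cytosolic ribosomal proteins lie at 0.48 and 2.19, replication and mitosis genes at 1.66 and 0.51, and the members between them at 1.01 and 1.71.

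Of the 53 members, 21 overlap another gene of the table in mm10, most of these on the opposite strand. A directional kit is named in the study's methods and a polyA cDNA kit in the labels, and whether the counting used strand is not given in the sources used here. Reads in the shared parts can then not be told apart. Among the members tested, the partner was on average the more abundant gene for *Rrp8* (overlapping *Ilk*, 126 CPM on average), *Rrp9* (*Parp3*, 60.0 CPM), *Nol7* (*Ranbp9*, 104 CPM), *Bop1* (*Mroh1*, 73.7 CPM), *Polr1e* (*Fbxo10*, 16.5 CPM) and *Dkc1* (*Mpp1*, 82.3 CPM).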

How the data were processed

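The deposited values are CPM per gene (12 libraries, 20202 genes), which the authors made with an offset of 0.0001 added. By the methods, STAR 2.5.3a aligned single reads (61 bases) to mm10 with Ensembl transcripts and the Partek E/M algorithm quantified them, which splits reads between genes. Low values were checked to be whole alignments (within 0.1) in 76.6% to 83.1% of cases, so no count test was run. The cDNA was amplified for 14 cycles without molecular identifiers. After the offset was subtracted, log2(CPM + 0.5) was fitted for the 13450 genes that reached 1 CPM in 3 or more libraries, in limma 3.58.1 (R 4.3.3, data.table version 1.17.8) with an intensity trend, 1 mean per sub-population and Benjamini-Hochberg adjustment over all genes tested. Calls required an adjusted p below 0.1 and a change beyond 2-fold. The code was tested on simulated data. Tables, promoters and plots were prepared in Python 3.11.15 (matplotlib 3.10.9, numpy 2.4.6, pandas 2.3.3).

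Members, role groups and lists were chosen with earlier results of these data known. Values in every library are given for the RNA polymerase I members, for the members with the highest mean and the largest and smallest difference of each role group, and for the member not tested. *Fbl*, *Nop58*, *Dkc1*, *Pes1*, *Bop1*, *Utp14b*, *Rrp9*, *Gnl3*, *Ubtf* and *Baz2a* were added after their values were seen. Other pseudocounts, filters, a median-ratio scaling, a stricter threshold, the replicate number as a block and each library left out were tried as alternatives. Exon lengths and overlaps are from GENCODE M21 and promoters from RefSeq. The members *Nol6*, *Nop53*, *Rrp12*, *Utp6*, *Utp11*, *Utp23*, *Npm1*, *Bop1*, *Fbl* and *Nol3* had no promoter entry there.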

Additional observations from a re-analysis of the deposited data

How the results depend on the processing

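Every count of members called and every median kept its direction under all alternatives tried. Members called in P12 against P10 numbered 9 in the fit reported, 4 after rescaling by the median ratio and 4 to 12 as single libraries were left out (4 without P12 replicate 2). Of all genes 1624, 1504 and 1233 to 2254 were called there in either direction (1233 without P12 replicate 2). Members called in P11 against P10 numbered 27 in the fit reported, 18 after rescaling and 21 with a pseudocount of 2. Of all genes 2740, 2463 and 1967 were called there in either direction. No other count of members left 1.5 times its value. Leaving out single libraries gave 39 to 41 members called in P11 against the others, 0 in P11 against P12, 25 to 32 in P11 against P10 and 49 to 51 in P11 against P9. The counts over all genes were 3238 to 3560, 1 to 83, 2659 to 2902 and 7538 to 7933. With a pseudocount of 2 the member median was 1.26 in P11 against the others, 0.96 in P11 against P10, 2.38 in P11 against P9, 2.04 in P12 against P9 and 1.46 in P10 against P9, and with a pseudocount of 0.1 it was 2.76 in P11 against P9. After rescaling, which lowers the median of all genes, the member medians in these comparisons were 1.12, 0.87, 2.19, 1.86 and 1.37, and 0.37 in P11 against P12. With single libraries left out the median ran from 1.30 to 1.41 in P11 against the others, 0.31 to 0.51 in P11 against P12, 0.99 to 1.06 in P11 against P10, 2.56 to 2.77 in P11 against P9 and 1.54 to 1.84 in P10 against P9. Rescaling ended the calls of *Rrn3*, *Nol9*, *Nop9*, *Utp18* and *Utp14b* in P11 against the others, of *Noc2l*, *Noc4l*, *Nol8*, *Nol10*, *Nol11*, *Polr1a*, *Polr1e*, *Rrp8* and *Utp6* in P11 against P10, and of *Polr1a* (0.67), *Polr1d* (0.85), *Rrp1* and *Utp23* in P11 against P9. The causes were not tested.

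The replicate numbers were not taken to pair the samples, since no label ties a number to a mouse. Still, 12 of 18 same-numbered pairs had a correlation of their deviations above 0.1 (lowest -0.016, highest 0.527). In addition, 10 of 12 libraries correlated best with their own number. Whether same-numbered libraries share a source was not tested. With the replicate number as a block the members called were 40, 0, 27, 50, 9, 48 and 44, as without it, in P11 against the others, P12, P10 and P9, in P12 against P10 and P9, and in P10 against P9; in P11 against P12 a single member passed the adjusted p (0.0833) under 2-fold, and 119 of all genes were called, against 3 without the block. At 13.4 alignments per CPM in the shallowest library, by the recovered totals, values under 1 CPM, as for *Rrp9* in P9, rest on few alignments.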

Other observations

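The member medians of single libraries were also set against the median of all genes tested in the same library, on the log2(CPM + 0.5) scale. The median member lay 1.16, 1.19 and 1.20 above the median gene in P11, 0.95, 1.08 and 0.73 above it in P12 and 0.44, 0.44 and 0.47 above it in P10. In P9 it lay below, at -0.64, -0.58 and -0.32. The 4 sub-populations did not overlap on this measure, and replicate 3 was the lowest in P12 and the highest in P9. Of the exosome genes, which trim the rRNA precursor, *Exosc2* was at 17.8, 18.6 and 23.4 CPM in P11, at 13.0, 17.3 and 11.2 CPM in P12, at 7.45, 5.49 and 6.38 CPM in P10 and at 1.39, 0.99 and 3.09 CPM in P9, with a difference of 1.77 in P11 against the others. *C1d*, an exosome cofactor, differed by 0.49, with P12 replicate 2 (39.3 CPM) above all P11 libraries (26.7, 29.2 and 33.6 CPM).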
